A study of Homo sapiens with 4 samples.

Results

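The miRNAs described here are those of 2 families whose hairpins lie in introns: miR-26, with hsa-miR-26a-5p, hsa-miR-26a-2-3p, hsa-miR-26b-5p and hsa-miR-26b-3p, and miR-103/miR-107, with hsa-miR-103a-3p, hsa-miR-103a-2-5p and hsa-miR-107 (hsa for human, left out below). They were chosen by name, and these 7 were among 1644 miRNA names in the count table, with 84 of its 12689 isoforms. HCT116, a widely used cell line from a human colorectal carcinoma, received 1 of 4 mixtures of plasmids in a study of how DROSHA cleaves pri-miRNAs with mismatches and wobble pairs, and 1 small RNA library was made per mixture. The empty vector mixture held only pcDNA3. The wild-type mixture held plasmids of pri-mir-30a, pri-mir-142, pri-mir-30d, pri-mir-576, pri-mir-885, pri-mir-128-1, pri-mir-342, pri-mir-200b and pri-mir-16-1. The mutant 1 mixture held pri-mir-16-1 and a variant of each of the others. The mutant 2 mixture held a variant of pri-mir-342, pri-mir-16-1 and empty vector. The labels were matched to these mixtures by the order in which the study lists them. No mixture held a plasmid of miR-26 or miR-103/miR-107, so all their reads came from the cells' own genes in every library. The cells are a tumour line, and no condition had a replicate: the ratios below compare libraries, not conditions, and the intervals cover counting error only, since reads without molecular identifiers are not independent molecules.

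A miRNA within an intron is transcribed with its host gene and is cut from the intron by Microprocessor, the complex of DROSHA and DGCR8, before DICER cuts the hairpin into a duplex of 2 arms. One arm, the guide, is kept by an Argonaute protein and pairs with target mRNAs mainly through its seed, and the other arm, the passenger, is mostly lost. The miR-26 hairpins lie in genes of the CTDSP family of small phosphatases, and miR-26 is known to restrain the methyltransferase EZH2. The miR-103/miR-107 hairpins lie in PANK genes, whose pantothenate kinases make the first step of coenzyme A synthesis, and these miRNAs are known to target DICER1 and CAV1.

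The mature sequences, as RefSeq gives them for GRCh38.p14, show which members can be told apart by a read. Capitals mark the seed, bases 2 to 8 from the 5′ end. The guide arms of miR-26 share the seed UCAAGUA:
miR-26a-5p: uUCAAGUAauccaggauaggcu
miR-26b-5p: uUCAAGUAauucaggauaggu
The guide arms of miR-103/miR-107 share the seed GCAGCAU:
miR-103a-3p: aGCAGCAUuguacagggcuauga
miR-107: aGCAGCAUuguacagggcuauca
The passenger arms have seeds of their own:
miR-26a-2-3p: cCUAUUCUugauuacuuguuuc
miR-26b-3p: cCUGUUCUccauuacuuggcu
miR-103a-2-5p: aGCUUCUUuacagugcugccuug
From miR-26a-5p to miR-26b-5p the substitutions were C11U and C21U, and miR-26b-5p is 1 base shorter. From miR-103a-3p to miR-107 the substitution was G22C alone, with positions counted from the 5′ end, so that a read of miR-103a-3p or miR-107 that stops before base 22 fits both. MIR26B was at chr2:218402646-218402722 on the plus strand, in intron 4 of CTDSP1. MIR107 was at chr10:89592747-89592827 on the minus strand, in intron 5 of PANK1. These positions are on hg38, and introns were numbered in the canonical transcripts of GENCODE release 44.

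By contrast, miR-26a-5p and miR-103a-3p each had 2 exact matches in hg38. The loci of miR-26a-5p were MIR26A1 at chr3:37969404-37969480 on the plus strand, in intron 5 of CTDSPL, and MIR26A2 at chr12:57824609-57824692 on the minus strand, in intron 5 of CTDSP2. The loci of miR-103a-3p were MIR103A1 at chr5:168560896-168560973 on the minus strand, in intron 5 of PANK3, and MIR103A2 at chr20:3917494-3917571 on the plus strand, in intron 5 of PANK2. All of these hairpins were on the strand of their host gene. The flanks decide which isoforms of these miRNAs match the genome once, so the mature sequence is shown here in lower case with 3 genomic bases on either side in capitals:
miR-26a-5p at MIR26A1: UCGuucaaguaauccaggauaggcuGUG
miR-26a-5p at MIR26A2: GGAuucaaguaauccaggauaggcuGUU
miR-103a-3p at MIR103A1: UCAagcagcauuguacagggcuaugaAGG
miR-103a-3p at MIR103A2: UCAagcagcauuguacagggcuaugaAAG
The loci of miR-26a-5p differed in the base just before the mature sequence, and those of miR-103a-3p differed from the base at +2 after it.

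The authors kept only reads that aligned unambiguously. The counts gave no read of miR-103a-3p at the annotated 3p end or 1 nt beyond it, where its sequences match both loci. At +2 nt, where the loci differ, miR-103a-3p had 18564, 18094, 16588 and 20826 reads in the empty vector, wild-type, mutant 1 and mutant 2 libraries, the order in which 4 values are given throughout. Isoforms with 1 genome match held 95.5%, 95.3%, 91.8% and 94.7% of its listed reads, and the rest were at ends of -1 to -3, whose sequences match hg38 at 2 or 3 places. For miR-26a-5p, isoforms with 1 genome match had 7, 17, 12 and 22 reads, all with starts upstream of the annotated start. These were 11.9%, 31.5%, 17.1% and 28.2% of its listed reads, and the others were at ends whose sequences match hg38 more than once. In contrast, isoforms with 1 genome match held at least 99.98% of the reads of miR-26b-5p and at least 99.8% of those of miR-107 in each library. The values of miR-26a-5p and miR-103a-3p below are the listed reads. With both annotated ends miR-26a-5p, whose sequence there matches both loci, had 0, 1, 0 and 0 reads. The listed reads are therefore not taken as full levels, and how many reads the filter removed was not tested.

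Some of the remaining reads were listed more than once. Each of the 15 isoforms of miR-103a-3p had an isoform of miR-103b with its ends swapped and with the same count in all 4 libraries. MIR103B1 and MIR103B2 lie opposite MIR103A1 and MIR103A2, so these are the same reads under 2 names. The reads of miR-103a-3p at a 3p end of -1 equalled the sum of those at shorter ends in 14 of 14 pairs of start and library with reads, and the reads of miR-26a-5p at -2 did so in 6 of 6. Without these doubled ends, miR-103a-3p had 19004, 18545, 17333 and 21405 reads, and miR-26a-5p had 33, 36, 41 and 50. Leaving them out changed miR-103a-3p little, while miR-26a-5p rested on fewer than 100 reads per library either way.

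The libraries held from 14544516 to 19834361 miRNA reads, of which the transfected miRNAs took 7.999%, 29.5%, 29.3% and 11.7%. Levels are therefore given as reads per 1000000 reads of untransfected miRNAs (RPM below), those that no plasmid encodes. The members had 121329, 107803, 108292 and 125181 reads in all, which was 0.834%, 0.621%, 0.546% and 0.730% of the miRNA reads.

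miR-26b-5p had the most listed reads of the members in every library. Its levels were 6843, 6421, 5744 and 6031 RPM, and it ranked between 25 and 29 among the untransfected miRNAs. The reads behind these levels were 91565, 78603, 80575 and 91278, so the counting error was small. The level was highest with the empty vector under each scaling tried. It was lowest in the mutant 1 library here and with all miRNA reads, but in the mutant 2 library when scaled by TMM, DESeq2 factors or miR-16-5p.

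miR-103a-3p came next with 1453, 1551, 1289 and 1453 RPM, from 19444, 18992, 18078 and 21984 reads. Its level was highest in the wild-type library, and the empty vector and mutant 2 libraries did not differ beyond counting error. The ratio of wild type to the empty vector was 1.07 here, but 0.995 with TMM, 0.991 with DESeq2 factors, 0.818 with all miRNA reads and 0.521 with miR-16-5p. miR-107 had 719, 761, 622 and 717 RPM, from 9619, 9315, 8722 and 10854 reads, and followed the same order of libraries, which turned in the same way (0.986, 0.982, 0.811 and 0.516). miR-107 thus ranked between 85 and 90, against 52 to 55 for the listed reads of miR-103a-3p.

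The other members had far fewer listed reads. miR-26b-3p, the passenger of miR-26b-5p, had 28.1, 41.3, 30.4 and 37.7 RPM. miR-26a-2-3p, the passenger arm of MIR26A2, had 16.1, 22.4, 23.8 and 21.9. Both were lowest in the empty vector library, although for miR-26b-3p the mutant 1 library was within counting error of it.

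miR-26a-5p, a guide arm, was listed with only 59, 54, 70 and 78 reads, or 4.41, 4.41, 4.99 and 5.15 RPM. miR-103a-2-5p, the passenger arm of MIR103A2, had 51, 60, 87 and 86 reads, or 3.81, 4.90, 6.20 and 5.68 RPM. The order of the 4 libraries could not be resolved for miR-26a-5p on so few listed reads. In every library the order of the members by listed reads was miR-26b-5p, miR-103a-3p, miR-107, miR-26b-3p and miR-26a-2-3p, and neighbours did not overlap within their intervals. For miR-26a-5p and miR-103a-3p this is not an order of full levels, since the authors kept only reads that aligned unambiguously. miR-26a-5p and miR-103a-2-5p, at the end of the order, were not separated in any library with all listed reads. Without its doubled end, miR-26a-5p was at 2.92 RPM (2.15 to 3.96) in the mutant 1 library and 3.30 (2.51 to 4.36) in the mutant 2 library. There miR-103a-2-5p was higher, at 6.20 (5.03 to 7.65) and 5.68 (4.60 to 7.02), while the empty vector and wild-type libraries still did not separate them. These values of miR-103a-2-5p keep 11 and 16 reads also listed as miR-103a-1-5p, and the separation was not tested without them.

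**Figure D1:**
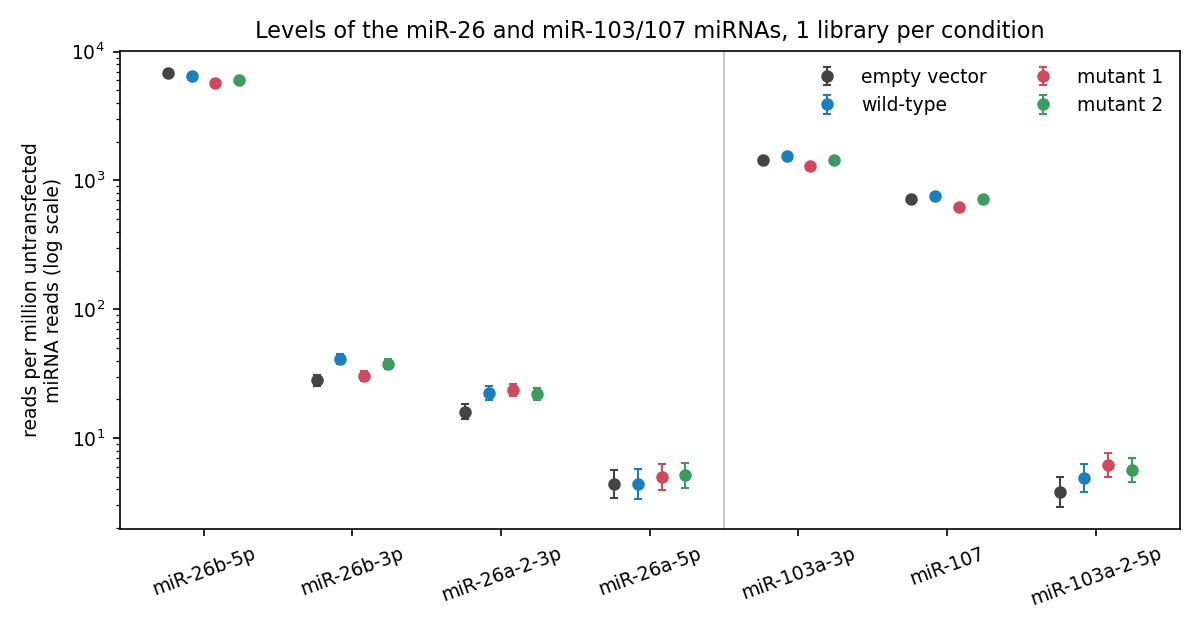
Levels in RPM, on a log axis, for the 7 members, with 1 point per library and bars for the 95% Wilson interval (counting error only). miR-26b-5p lay between 5744 and 6843 and the listed reads of the guide arm miR-26a-5p between 4.41 and 5.15. The points of miR-26a-5p and miR-103a-3p are listed reads, not full levels, since reads that aligned ambiguously were not kept.

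The relatives of these members were given as counts. miR-26a-1-3p, the passenger arm of MIR26A1, had 44, 92, 115 and 115 reads. miR-103a-1-5p, the passenger arm of MIR103A1, had 15, 7, 21 and 19 reads. Part of these are also listed as miR-103a-2-5p: its isoforms with the annotated start and an end at -1 or -2 had 13, 3, 11 and 16 reads together, the same as miR-103a-1-5p with a start at +1 and an end at -1. Of the miRNAs that also carry the miR-26 seed, miR-4465 had 0 reads, where 3 reads would be 0.198 to 0.245 RPM in these libraries. miR-1297 had 0 reads as well, but its annotated sequence of 17 nt is under the length limit of 18 nt and matches hg38 at 2 places, so this count sets no limit on its level.

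The summed reads of the miR-26 members in the wild-type library were 0.942 of those with the empty vector (95% interval 0.933 to 0.951), and in the mutant 1 and mutant 2 libraries they were 0.842 (0.834 to 0.850) and 0.885 (0.877 to 0.893). Scaled to all miRNA reads these ratios were 0.722, 0.647 and 0.849, and scaled to miR-16-5p, for which the median of all untransfected miRNAs moves as well, 0.459, 0.406 and 0.361. For miR-103/miR-107 the ratios were 1.07 (1.05 to 1.08), 0.881 (0.866 to 0.896) and 1.00 (0.984 to 1.02), where the value for wild type was below 1 with each other scaling (0.992 with TMM, 0.988 with DESeq2 factors, 0.816 with all miRNA reads and 0.519 with miR-16-5p). From wild type to mutant 1, the ratio was 0.894 (0.886 to 0.903) for miR-26 and 0.827 (0.814 to 0.841) for miR-103/miR-107, and the former was above 1 with TMM (1.04) and DESeq2 factors (1.03). The 3 comparisons with the empty vector share that library, so they are not independent.

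The median untransfected miRNA also moved, with ratios of 1.06, 0.988 and 1.04 to the empty vector and 0.901 from wild type to mutant 1. Relative to this median, which does not depend on the scaling, miR-26b-5p stood at 0.883, 0.849 and 0.852 of its level with the empty vector and at 0.993 from wild type to mutant 1. In the comparison of wild type with the empty vector, 118 of 471 untransfected miRNAs had a lower ratio than miR-26b-5p, and this was 149 of 471 for mutant 1 and 110 of 486 for mutant 2. miR-103a-3p stood at 1.00, 0.897 and 0.966 of the median and miR-107 at 0.996, 0.875 and 0.964. All of these guide arms thus lay within the scatter of miRNAs that were not transfected.

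Among the 7 members, none passed 1.5-fold between wild type and the empty vector, where 10.8% of the untransfected miRNAs did (those averaging 50 reads or more in the libraries compared). Between mutant 1 and the empty vector 1 of 7 passed, against 20.6%. None passed between mutant 2 and the empty vector, against 9.26%, or between mutant 1 and wild type, against 14.9%. These calls were not computed without the 13, 3, 11 and 16 reads of miR-103a-2-5p that are also listed as miR-103a-1-5p. The member that passed was miR-103a-2-5p, with a ratio of 1.63 (1.15 to 2.30) on 87 against 51 reads, and its interval includes ratios under 1.5. It no longer passed with all miRNA reads (1.25) and was below 1 with miR-16-5p (0.785), the normaliser of the study, under which 5, 5 and 7 members passed against the empty vector, as did 85.4%, 87% and 95.7% of the untransfected miRNAs. With all miRNA reads miR-26b-5p and miR-107 passed in its place, both lower, where 38.4% of the untransfected miRNAs passed. With TMM and DESeq2 factors miR-26a-2-3p passed beside it, at 1.61 and 1.58, where 20.6% and 20.8% passed. Scaled to the reads of untransfected miRNAs, no member passed 2-fold in any of these comparisons, where 1.91%, 3.82%, 1.44% and 1.49% of the untransfected miRNAs did. This does not hold with miR-16-5p, where miR-26b-5p was at 0.457 for wild type against the empty vector.

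**Figure D2:**
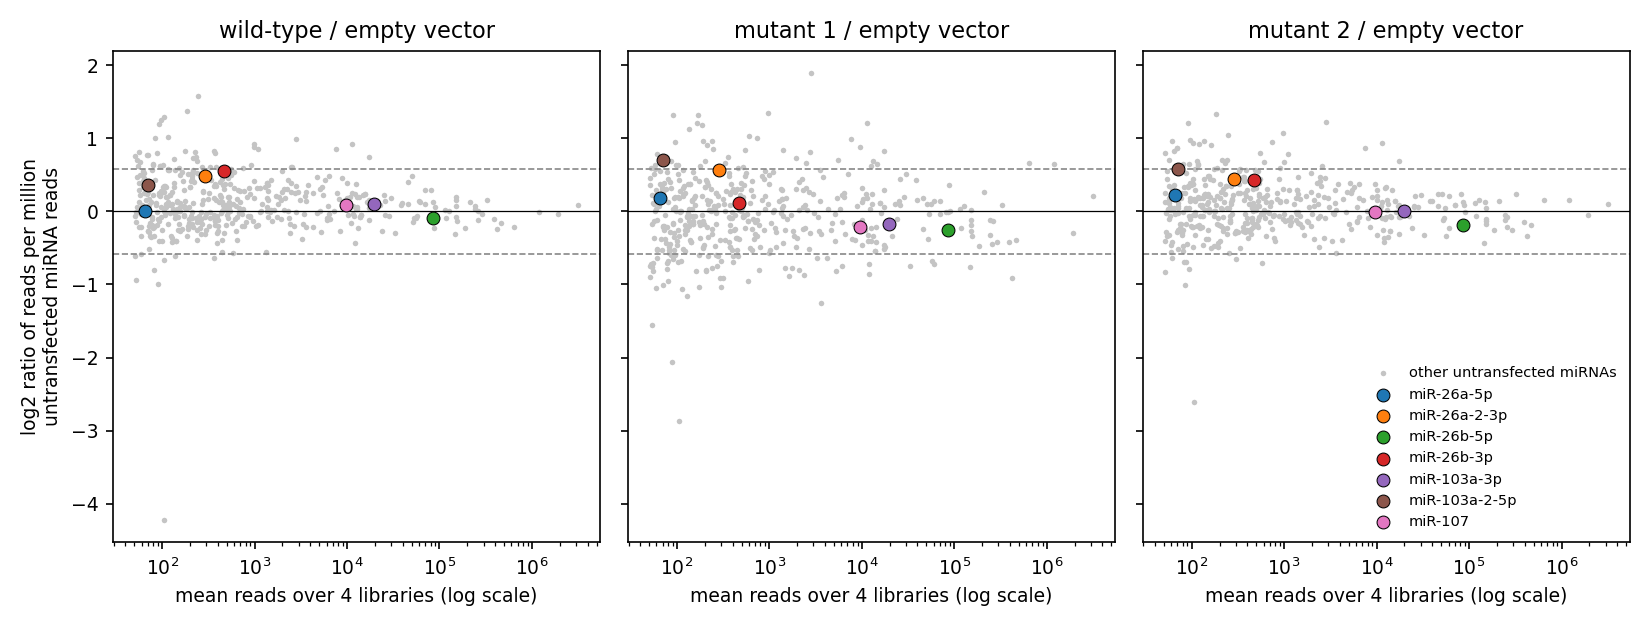
log2 ratio of RPM to the empty vector library (y axis) against the mean reads over the 4 libraries (log x axis), for the members (coloured) and the other untransfected miRNAs with at least 50 reads on average (grey), with dashed lines at 1.5-fold. Of the members, miR-103a-2-5p in the mutant 1 library, with a log2 ratio of 0.70, is the only one past a dashed line.

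The 3 passenger arms had ratios to the empty vector above 1, as did 61.8% of the untransfected miRNAs for wild type, 48.4% for mutant 1 and 56.2% for mutant 2. With miR-16-5p the ratios of all of these arms were below 1, and with all miRNA reads so were those of miR-103a-2-5p for wild type (0.985) and miR-26b-3p for mutant 1 (0.831). miR-26b-3p had ratios of 1.47 (1.28 to 1.68), 1.08 (0.941 to 1.24) and 1.34 (1.18 to 1.53) to the empty vector. miR-26a-2-3p had ratios of 1.39 (1.17 to 1.67), 1.48 (1.25 to 1.76) and 1.36 (1.15 to 1.62). miR-103a-2-5p had 1.29 (0.885 to 1.87) and, in the mutant 2 library, 1.49 (1.05 to 2.11). From wild type to mutant 1 the ratio of miR-26b-3p was 0.736 (0.647 to 0.838), the lowest among the members, while miR-26a-2-3p had 1.06 (0.907 to 1.25) and miR-103a-2-5p 1.27 (0.911 to 1.76). The intervals of miR-26b-3p for mutant 1 and of miR-103a-2-5p for wild type, each against the empty vector, include 1.

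The relative miR-26a-1-3p had the highest ratios to the empty vector in the families, with 2.29 (1.60 to 3.27), 2.49 (1.76 to 3.53) and 2.31 (1.63 to 3.27). Of the untransfected miRNAs, 1.7%, 1.91% and 1.03% were more than 2-fold higher in the same comparisons. With all miRNA reads its ratios were 1.75, 1.92 and 2.22, and with miR-16-5p 1.11, 1.20 and 0.942, the last below 1. Relative to the median untransfected miRNA they were 2.15, 2.52 and 2.23. Its reads were few in the empty vector library, and no second empty vector library was measured against which to set that count.

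As a share of the reads of both arms, miR-26b-5p took 99.59% (99.55 to 99.63), 99.36% (99.30 to 99.41), 99.47% (99.42 to 99.52) and 99.38% (99.33 to 99.43). There were 244, 156, 189 and 160 guide reads for each passenger read. This arm ratio needs no scaling between libraries, and the passenger per guide was 1.56, 1.29 and 1.52 times that with the empty vector.

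The same change was computed for 67 other pairs of arms in which the minor arm averaged 50 reads or more and the major arm at least 10 times as many. The minor arm per major arm was higher than with the empty vector in 68.7%, 50.7% and 53.7% of them for wild type, mutant 1 and mutant 2, with medians of 1.08, 1.01 and 1.04. Of these pairs, 61, 45 and 60 lay below miR-26b, so that the miR-26b hairpin was towards the upper end, though not at the top, for wild type and mutant 2.

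For miR-103a the guide arm took 99.74%, 99.69%, 99.52% and 99.61% of the reads of miR-103a-3p and miR-103a-2-5p. As the guide comes from both loci, while the passenger comes from MIR103A2, this is not the arm ratio of a hairpin. For miR-26a the listed guide was in the minority, with 21.5% (17.1 to 26.8), 16.5% (12.8 to 20.9), 17.3% (13.9 to 21.3) and 19.1% (15.6 to 23.2) of the reads of miR-26a-5p and miR-26a-2-3p. These intervals overlap in all pairs of libraries, and the guide reads are the listed ones. Without the doubled end the shares were 13.3% (9.63 to 18.1), 11.6% (8.51 to 15.7), 10.9% (8.16 to 14.5) and 13.1% (10.1 to 16.9).

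Within the seed families, miR-26a-5p made up 0.0644%, 0.0687%, 0.0868% and 0.0854% of the reads of miR-26a-5p and miR-26b-5p, and without its doubled end 0.0360%, 0.0458%, 0.0509% and 0.0547%. miR-107 made up 33.1% (32.6 to 33.6), 32.9% (32.4 to 33.5), 32.5% (32.0 to 33.1) and 33.1% (32.5 to 33.6) of the reads of miR-103a-3p and miR-107. The latter intervals overlap in all pairs of libraries. Both shares hold only for the listed reads.

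The 5p ends, which set the seed, were uniform for the guide arms other than miR-26a-5p. The annotated start held 99.67% to 99.76% of the reads of miR-26b-5p, 99.6% to 99.7% of those of miR-107 and 98.5% to 99.0% of those of miR-103a-3p. It also held 99.5% to 99.8% of the reads of miR-26b-3p. For miR-26a-5p the annotated start held 84.7% (73.5 to 91.8), 68.5% (55.3 to 79.3), 82.9% (72.4 to 89.9) and 69.2% (58.3 to 78.4), the reads with other starts being mainly those that match 1 locus. Without the doubled end these shares were 75.8% (59.0 to 87.2), 52.8% (37.0 to 68.0), 70.7% (55.5 to 82.4) and 54.0% (40.4 to 67.0).

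The 3p ends were not at the annotated position for most of these arms. miR-26b-5p ended 1 nt short of it in 90.1% (89.9 to 90.3), 89.6% (89.4 to 89.8), 91.1% (90.9 to 91.3) and 90.2% (90.0 to 90.4) of reads. miR-107 ended 1 nt beyond it in 79.0% (78.2 to 79.8), 78.9% (78.1 to 79.7), 71.1% (70.1 to 72.0) and 75.0% (74.2 to 75.8). The share of miR-107 at this end was lower beyond counting error in both mutant libraries than in the empty vector and wild-type libraries, and lower in mutant 1 than in mutant 2.

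For miR-103a-3p the end at +2 nt held 95.5%, 95.3%, 91.8% and 94.7% of the listed reads (97.7%, 97.6%, 95.7% and 97.3% without the doubled end), with no reads at 0 or +1. miR-26b-3p ended at -1 in 84.3% to 85.9% of reads and miR-26a-2-3p at the annotated end in 89.7% to 94.0%. miR-103a-2-5p ended there in 47.1% (34.1 to 60.5) with the empty vector and in 73.3% (61.0 to 82.9), 67.8% (57.4 to 76.7) and 65.1% (54.6 to 74.3) in the others, on 51 to 87 reads.

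**Figure D3:**
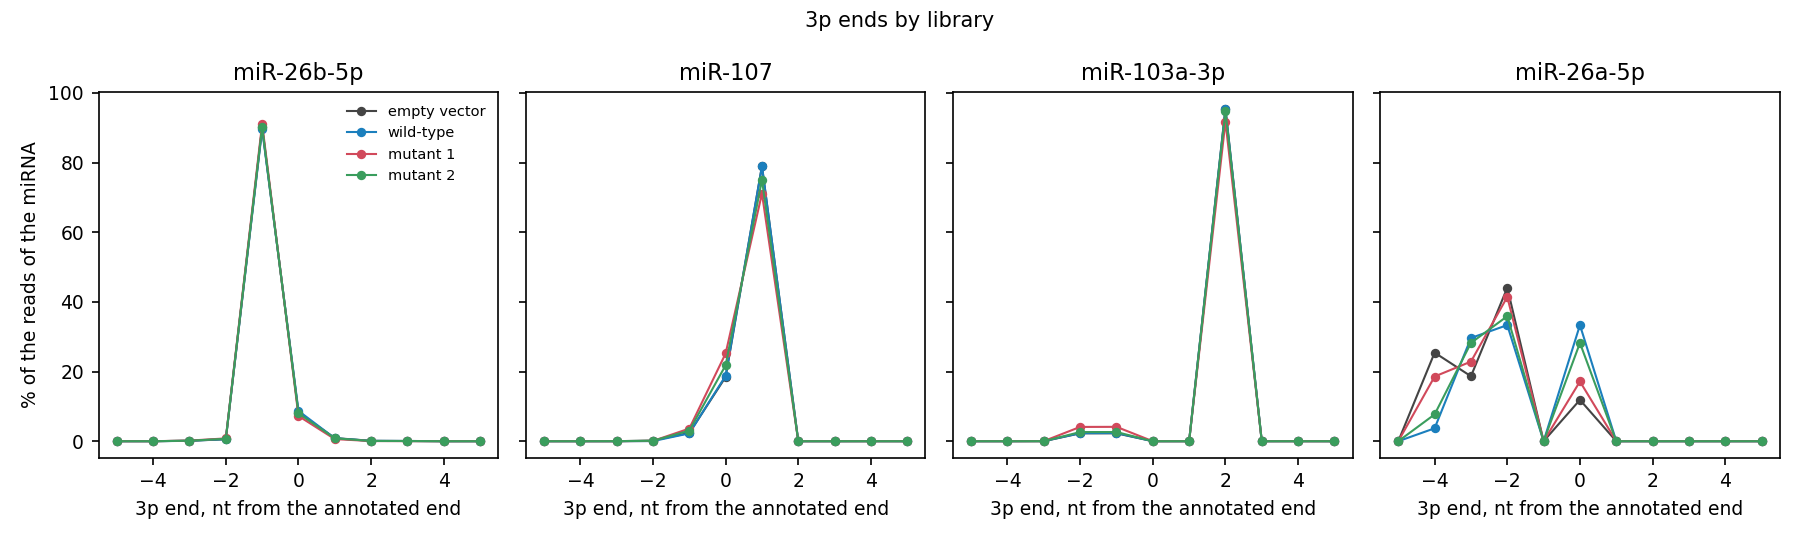
Percent of the reads of a miRNA (y axis) at each 3p end, in nt from the annotated end (x axis), for 4 guide arms, with 1 line per library. miR-26b-5p peaks at -1 and miR-107 at +1 in every library, while miR-103a-3p has no reads at 0 or +1 and the 54 to 78 reads of miR-26a-5p are scattered.

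The mean 3p end of miR-107 moved by -0.089 nt from the empty vector to the mutant 1 library, that of miR-103a-3p by -0.13 nt and that of miR-26b-5p by -0.022 nt. Of 168 other untransfected miRNAs averaging 1000 reads or more, 88.1% also had a lower mean 3p end, with a median shift of -0.057 nt and a range of -0.26 to 0.015 nt from the 5th to the 95th percentile. The members lay inside this range, with 59 and 118 of the 168 below miR-107 and miR-26b-5p. The shift of miR-103a-3p counts its doubled end and was -0.080 nt without it. It is also taken over listed reads, with none at the annotated end or 1 nt beyond it. It is therefore not the shift of all reads of miR-103a-3p and is not directly comparable with that of miR-107.

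From the empty vector to the wild-type library the shifts of miR-107, miR-103a-3p and miR-26b-5p were 0.0050, -0.0063 and 0.0040 nt, where 58.9% of the others were lower. To the mutant 2 library they were -0.045, -0.026 and -0.0063 nt, where 78.6% were lower. From wild type to mutant 1 they were -0.094, -0.12 and -0.026 nt, where 93.5% were lower. Without its doubled end miR-103a-3p had shifts of -0.0038, -0.016 and -0.076 nt in these 3 comparisons. The shorter ends of the members in the mutant 1 library were therefore shared with most miRNAs of that library, and the part of the library itself was not tested.

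**Figure D4:**
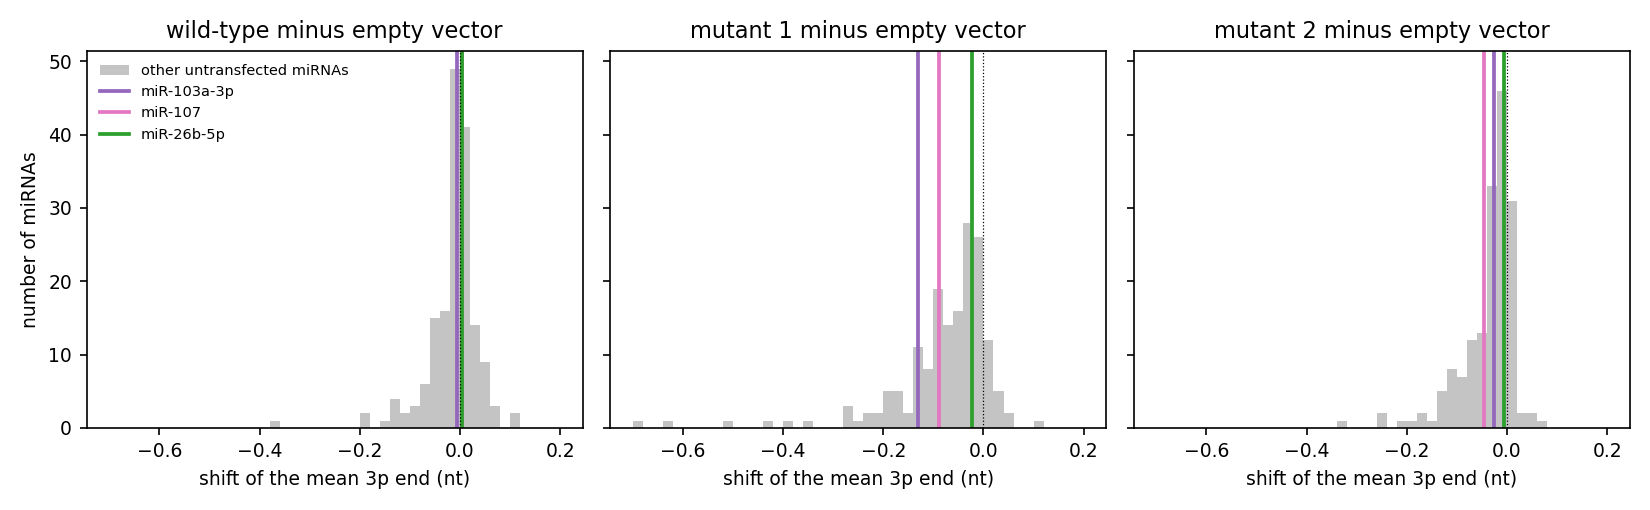
Histograms of the shift in mean 3p end (nt, x axis) from the empty vector library for 168 other untransfected miRNAs (grey, number of miRNAs on the y axis), with lines for the 3 members with at least 1000 reads on average, all listed reads included. In the mutant 1 panel the bulk of the histogram and the lines of all these members lie below 0.

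Other intronic miRNAs were compared through a list of 23 guide arms, all of them measured. Past 1.5-fold, 0 were higher and 0 lower for wild type against the empty vector, against 9.13% and 1.7% of the untransfected miRNAs. For mutant 1, 3 were higher and 1 lower, against 8.92% and 11.7%, and for mutant 2, 0 and 0, against 7.41% and 1.85%. From wild type to mutant 1, 0 were higher and 2 lower, against 3.4% and 11.5%. The medians of the list were 1.07, 0.977, 1.02 and 0.868, against 1.03, 0.876, 0.999 and 0.863 for the 4 guide arms among the members. With their passenger arms the 7 members had medians of 1.07, 1.08, 1.17 and 0.895.

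The miRNAs most like each guide arm were found among 172 untransfected miRNAs averaging 1000 reads or more, by the root mean square difference in log2 ratio to the empty vector over the other 3 libraries, which share that baseline. miR-103a-3p was most like miR-107 (0.022), then miR-130a-3p (0.030) and miR-221-3p (0.055). miR-107 was in turn most like miR-103a-3p and its double miR-103b, then miR-769-5p (0.047). These likenesses are descriptions of 3 ratios per miRNA.

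miR-26b-5p was most like miR-641 (0.045), miR-151a-3p (0.045) and let-7g-5p (0.058). For miR-26a-5p they were let-7a-5p (0.035), miR-34a-5p (0.054) and miR-200c-3p (0.074), although its own ratios of 1.00 (0.692 to 1.45), 1.13 (0.8004 to 1.60) and 1.17 (0.834 to 1.64) have wide intervals. With fewer than 100 reads per library miR-26a-5p was itself no candidate.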

How the data were processed

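After adapter trimming with cutadapt, a length limit of 18 to 26 nt and a quality filter, the authors aligned reads to hg38 with Bowtie2 and kept unambiguous reads with mismatches only at the 3p end, which they assigned to miRBase v22 loci (the submitters' processing notes name cutadapt and Bowtie2, and the study's methods the steps). The counts the authors deposited are raw reads per miRNA isoform, defined by 5p and 3p offsets of -5 to 5 nt. Blank cells were read as 0. A miRNA's reads were added over its isoforms and divided by the reads of untransfected miRNAs, which excludes every mature sequence found in the cloned pri-miRNAs. Depth was 14544516 to 19834361 reads, and with 1 library per condition no test was made. Intervals are at 95% (Wilson for shares, normal on the log scale for ratios), and the floor is 3 reads. Ratios were set against untransfected miRNAs, miR-103b among them, with a mean of at least 50 reads over both libraries. Some other pairs of names among these, and among the 168 used for 3p ends, also had the same mean reads and ratios. These sets therefore count names and not distinct miRNAs. Isoforms were matched exactly to the primary chromosomes of hg38, and 12 isoforms of the members, with 28 reads of 462605, had lengths outside 18 to 26 nt.

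The miRNAs named are the 7 members, their relatives and, for 4 guide arms, the 3 untransfected miRNAs most like them. A list of other intronic guide arms is given by its counts and medians. For miR-103a-3p its double miR-103b was left out of these. Members, lists and comparisons were chosen with earlier results of these data known. Alternatives were other scalings (all miRNA reads, miR-16-5p, edgeR 4.0.16 TMM and DESeq2 1.42.0 median of ratios, in R 4.3.3), read minimums of 10 and 200, a 2-fold limit and subsets of isoforms. Python 3.11.15, pandas 2.3.3, numpy 2.4.6, scipy 1.17.1 and matplotlib 3.10.9 were used, and the procedure was tested on simulated data. The mutant sequences and the other assays of the study were not analysed here.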

Additional observations from a re-analysis of the deposited data

How the results depend on the processing

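No paired analysis was possible because each condition had 1 library. In the order wild type, mutant 1 and mutant 2 against the empty vector, the miR-26 sum was 0.722, 0.647 and 0.849 scaled to all miRNA reads, 0.459, 0.406 and 0.361 scaled to miR-16-5p, 0.877, 0.913 and 0.867 with TMM, and 0.874, 0.897 and 0.859 with DESeq2 factors. The miR-103/miR-107 sum was 0.816, 0.677 and 0.960 with all miRNA reads, 0.519, 0.425 and 0.408 with miR-16-5p, 0.992, 0.955 and 0.9802 with TMM, and 0.988, 0.938 and 0.971 with DESeq2 factors, so its value above 1 in the wild-type library fell below 1 with each of these. From wild type to mutant 1, miR-26 was 0.885 with miR-16-5p but 1.04 with TMM and 1.03 with DESeq2 factors, past 1, and miR-103/miR-107 was 0.963 with TMM and 0.949 with DESeq2 factors. pri-mir-16-1 was transfected in all mixtures but the empty vector, and scaling to miR-16-5p set the median log2 ratio of the untransfected miRNAs at -0.95, -1.07 and -1.24 against the empty vector. Under that scaling 5, 5 and 7 members passed 1.5-fold, as did 85.4%, 87% and 95.7% of the untransfected miRNAs, and miR-103a-2-5p in the mutant 1 library was reversed to 0.785. In mutant 1 against the empty vector, 2 members passed with all miRNA reads, both lower (miR-26b-5p at 0.645 and miR-107 at 0.665), and miR-103a-2-5p at 1.25 no longer did, while 38.4% of the untransfected miRNAs passed. With TMM 2 passed, both higher (miR-26a-2-3p at 1.61 and miR-103a-2-5p at 1.76), as did the same 2 with DESeq2 factors (1.58 and 1.73), where 20.6% and 20.8% passed. Scaled to the reads of untransfected miRNAs, 0 members passed 2-fold, while with miR-16-5p miR-26b-5p did, at 0.457 for wild type.

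Among the shares, only isoforms at the annotated 5p start put miR-26a-5p at 0.0472% of the miR-26 guides for wild type and 0.0593% for mutant 2, and at 12.1% and 14.03% of its reads with miR-26a-2-3p. With the most abundant isoform alone, miR-26a-5p was at 0.0304%, 0.0256%, 0.0396% and 0.0329% in the 4 libraries. With isoforms that reach the annotated 3p end, miR-107 was at 33.5% for wild type and 33.6% for mutant 1. Of the 92 alternative values of the main results, 36 stayed (within the counting interval or, for counts of members, within 1.5 times) and 56 moved, and of 188 values for single miRNAs and the background, 100 stayed. Under the other scalings 6 of 32 family ratios and 28 of 112 ratios of single members crossed 1, of which 1 and 14 did so with miR-16-5p. Leaving out a doubled 3p end, chosen after seeing the data, put miR-26a-5p at 0.0360%, 0.0458%, 0.0509% and 0.0547% of the miR-26 guides and at 13.3%, 11.6%, 10.9% and 13.1% of its reads with miR-26a-2-3p, and miR-107 at 33.5% for mutant 1 and 33.6% for mutant 2. Few listed reads limit miR-26a-5p and miR-103a-2-5p, with 51 to 87 a library, and no replicate sets the spread between transfections.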

Other observations

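Among other untransfected miRNAs averaging 50 reads or more, members and miR-103b left out, 5 of 15 with 2 or more RefSeq loci had at most 3 reads at both annotated ends over the 4 libraries, as did 30 of 403 with 1 locus. The difference was not tested.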
